A study of Gossypium bickii with 18 samples.

Results

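Transcript levels in cotyledons of Gossypium bickii, a wild Australian diploid cotton, were compared between light and dark at a single time, 24 h after imbibition, the uptake of water that starts germination. Values were FPKM, the fragments of a gene scaled by its length and by the total fragments of the library. Genes entered the comparison when they stood at 1 FPKM or more in at least 3 of the 6 libraries, which kept 23059 of the 49301 gene IDs listed. The first group was cotyledon RNA from germination under light, and the second was cotyledon RNA from germination in the dark, with 3 libraries each out of 18 in the whole study. The labels give no variety, light intensity or hour at which light began, and they name no agent other than light that differed between the groups. Replicates are called biological, but no label says that they came from separate plants. Every p-value therefore compares only these libraries and does not speak for plants in general. No table links the gene IDs to names or functions. The tissue label therefore could not be checked against marker genes, and no role is given to any ID. In whole cotyledons, fewer cells of a type and less RNA per cell cannot be told apart.

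Cotyledons are the seed leaves, which hold the stored protein and oil of a cotton seed and become its first green leaves. Plants sense light through phytochromes and cryptochromes, photoreceptors that act largely by changing transcription. In the dark, cotyledons of a seedling stay closed and pale, and light starts greening, chloroplast development and expansion. Cotyledons of cotton also carry pigment glands, cavities that hold gossypol and related terpenoids. In G. bickii these glands are missing from the dormant seed and form after germination, which is why the species is used to follow their development.

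Low FPKM values fell on steps of whole fragments over whole gene lengths, and these steps gave the depth of each library. Light replicates 1, 2 and 3 held 18457882, 17518318 and 17762565 fragments, and dark replicates 1, 2 and 3 held 16377143, 17285259 and 18999970. Depth therefore overlapped between the groups. Light replicate 2 stood apart in the IDs that reached 1 FPKM in it alone. In it 850 IDs reached 1 FPKM that did so in no other library, against 219 to 311 IDs in each of the other 5 libraries. Of the 850, 177 were IDs that lack the Gbi prefix. Not all were near that level, since 77 of the 850 stood at 5 FPKM or more and the highest at 77.2 FPKM. In each of the other 5 libraries 3 to 7 such IDs stood at 5 FPKM or more, and the highest at 9.9 to 47 FPKM. IDs outside the comparison took 1.81% of summed FPKM in light replicate 2, against 0.596% and 0.822% in the other light libraries and 0.365% to 0.51% in the dark libraries.

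Most of the 23059 genes were measured in both conditions. Of these, 19519 (84.6%) stood at 1 FPKM or more in all 6 libraries. Another 268 did so in all 3 light libraries and no dark library, and 61 in all 3 dark libraries and no light library. These 268 and 61 genes entered only through the group where they were high, at a median of 1.99 and 1.77 FPKM in it. In the test below 91 of the 268 and 9 of the 61 were called, against 727 of all 23059 genes. Groups that do not overlap were part of how these genes were chosen, which favours calls, so these counts are a description. The median gene stood at 9.36, 9.41 and 9.61 FPKM in light replicates 1, 2 and 3, and at 7.14, 8.04 and 8.66 FPKM in dark replicates 1, 2 and 3. At the upper end the order was the other way round. Genes at 100 FPKM or more numbered 1258, 1284 and 1258 in the light libraries, against 1413, 1385 and 1325 in the dark libraries. On both measures the light libraries lay together and did not overlap with the dark libraries, among which replicate 3 lay nearest to light. The bound of 1 FPKM passed through a dense range of levels, since 359 genes inside it reached it in the library that decided their entry by less than 0.1 FPKM, at under 1.1 FPKM, and 403 IDs outside it stood there at 0.9 FPKM or more.

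Light and dark differed at 727 genes (3.15% of those tested), of which 587 (2.55%) were higher and 140 (0.607%) lower in light. Calls needed an adjusted p under 0.05 in limma on log2(FPKM + 1), with Benjamini-Hochberg adjustment over all 23059 genes, together with a log2 difference of 1 or more in size. The genes called higher had a median log2 difference of 1.44 and reached 4.82, and 100 of them differed by 2 or more. Genes called lower had a median of -1.19 and reached -2.42, and 2 of them differed by 2 or more. Over all genes tested the median log2 difference was 0.13, and the range from the 5th to the 95th percentile was -0.69 to 1.08. In all 727 called genes the light and dark libraries did not overlap. With no overlap as the only criterion, 5412 genes (23.5%) lay higher in all 3 light libraries than in any dark library, and 2723 (11.8%) lay lower in all 3. A further 1058 genes differed by 1 or more without passing the adjusted p. Fits with a library left out had fewer libraries, which by itself can lower the count. The count was 251, 295 and 205 without light replicates 1, 2 and 3, and 355, 244 and 2153 without dark replicates 1, 2 and 3. With no filter on low values it was 312. An adjusted p under 0.05 alone, with no fold minimum, was met by 1103 genes (4.78%), and an unadjusted p under 0.05 by 6757 genes (29.3%). In limma's voom on fragment numbers 844 genes (3.66%) were called. Scaling moved the split: 80.7% of calls were higher in light on the deposited values, 68.5% when libraries were scaled by median of ratios and 65.3% when they were quantile normalized. The median log2 difference of all genes was 0.13, 0.00 and -0.02 in these 3 fits.

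**Figure D1:**
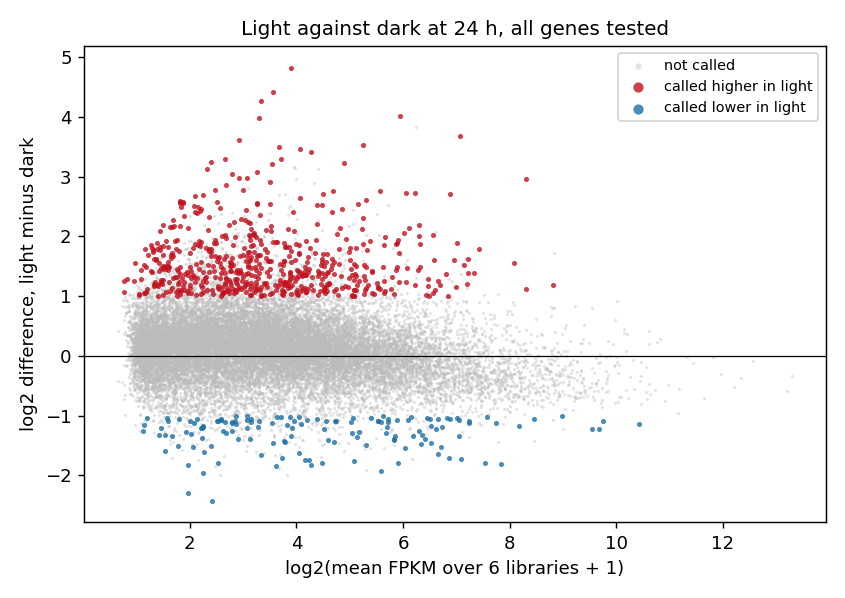
Log2 difference of light minus dark (vertical axis) against log2 of the mean FPKM over the 6 libraries plus 1 (horizontal axis), with 1 point per gene tested, in red for the 587 genes called higher in light, in blue for the 140 called lower and in grey for the rest. Red points reach 4.82 log2 units and lie mostly at low and middle levels, while blue points reach -2.42 and extend to the higher levels.

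Calls kept in every fit with a library left out were mostly genes higher in light, as were 80.7% of all calls. Each of these fits had fewer libraries, so a lost call need not have rested on a single library. In all 6 fits that left out a library, 147 genes kept their call and direction. They were 135 (23%) of the genes called higher and 12 (8.57%) of those called lower, and 20 of the 727 genes were called in none of the 6 fits. The 135 genes had a median log2 difference of 1.83, with a median of 26.2 FPKM in light and 5.81 FPKM in dark. The 12 genes had a median log2 difference of -1.39, with a median of 36.5 FPKM in light and 99.9 FPKM in dark. Of the 135 genes 131, and of the 12 genes 11, were also called in all 3 of the fits with median-of-ratios scaling, with quantile normalization and with voom. These genes were stronger by construction than the other calls, whose medians were 1.35 and -1.17 log2 units.

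Gbi05G2531 and Gbi10G0026 had the largest differences among the genes higher in light that kept their call in every fit with a library left out and averaged at least 5 FPKM in both groups. Gbi05G2531 stood at 114, 113 and 115 FPKM in light replicates 1, 2 and 3, against 5.38, 7.91 and 5.46 FPKM in dark replicates 1, 2 and 3. The light values lay close together and far above every dark value. They rested on 1335, 1259 and 1304 fragments in light and 56, 87 and 66 in dark over a gene length of 636 bases. It averaged 114 ± 1.25 FPKM in light and 6.25 ± 1.44 FPKM in dark (SD, n = 3 each), a log2 difference of 4.01 (SE 0.16, limma adjusted p = 0.000163). Gbi10G0026 stood at 230.2, 269 and 239 FPKM in light, against 29.5, 8.92 and 22.5 FPKM in dark. Dark replicate 2 was the lowest, at 31 fragments, and the light libraries held 854, 947 and 855. This gene of 201 bases averaged 246 ± 20.2 FPKM in light and 20.3 ± 10.5 FPKM in dark (SD, n = 3 each), a log2 difference of 3.68 (SE 0.37, limma adjusted p = 0.00372). Over all alternatives the adjusted p ran from 0.000113 to 0.00693 for Gbi05G2531 and from 0.00222 to 0.0291 for Gbi10G0026. Both upper ends came from fits with a library left out, where passing was part of the choice.

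The genes chosen in the same way among those lower in light were Gbi01G0292 and Gbi09G2220. Gbi01G0292 stood at 83.6, 101 and 117 FPKM in light, against 383, 362 and 319 FPKM in dark. Every dark value exceeded every light value, and it fell by 1.82 on the log2 scale (SE 0.16, limma adjusted p = 0.0023). In fragments this was 1493, 1717 and 2015 in light and 6072, 6063 and 5870 in dark, over 968 bases. Gbi09G2220 stood at 79.2, 53.6 and 53.6 FPKM in light, against 262, 201 and 163 FPKM in dark. Light replicate 1 and dark replicate 1 were each the highest of their group, and the groups did not overlap. Its means were 62.1 ± 14.8 FPKM in light and 209 ± 49.8 FPKM in dark (SD, n = 3 each), and it fell by 1.73 on the log2 scale (SE 0.22, limma adjusted p = 0.00834). Over all alternatives the adjusted p ran from 0.00175 to 0.0199 for Gbi01G0292 and from 0.00597 to 0.0481 for Gbi09G2220. Here too the upper ends came from fits with a library left out, where passing was part of the choice. Copies of these genes with nearly the same sequence could share their fragments, which was not tested.

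**Figure D2:**
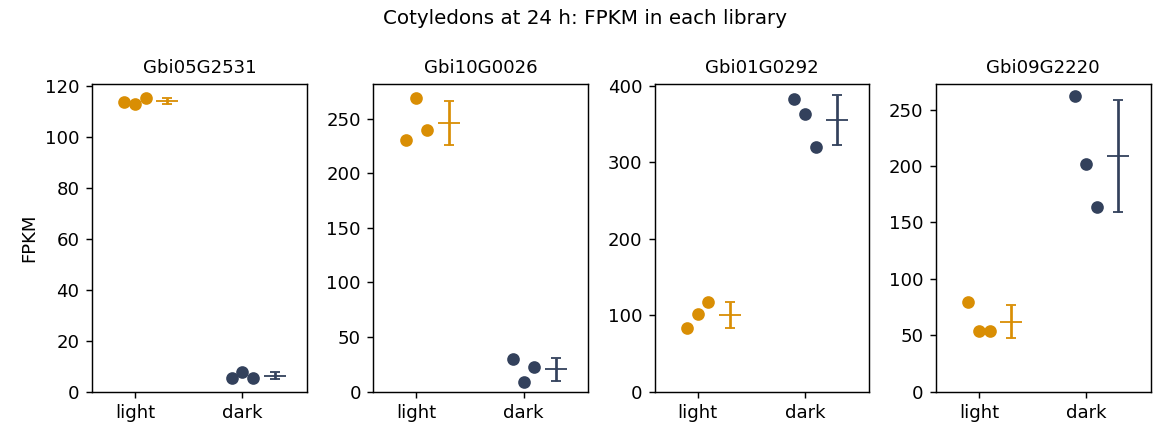
FPKM (vertical axes, each from 0) of 4 genes in the 3 light and the 3 dark libraries at 24 h, with 1 point per library in replicate order and the mean ± SD beside the points. Gbi05G2531 and Gbi10G0026 lie higher in every light library, and Gbi01G0292 and Gbi09G2220 lie lower in every light library.

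The direction of the differences varied with the level of the gene and with the scaling. Among the 1320 genes with a mean of 100 FPKM or more over the 6 libraries, 18 (1.36%) were called higher and 24 (1.82%) lower in light. The class from 5 to 20 FPKM held 251 (2.92%) genes called higher and 42 (0.488%) called lower out of 8600. Below 2 FPKM 57 (1.85%) of 3087 genes were called higher and 8 (0.259%) lower, at a median of 37 fragments per gene and library, against 3500 in the highest class. The median log2 difference was 0.15 below 2 FPKM and 0.20 from 2 to 5 and from 5 to 20 FPKM. It was 0.02 from 20 to 100 FPKM and -0.27 at 100 FPKM or more, where 27.4% of genes had a positive difference. From the lowest class to the highest, voom gave medians of 0.28, 0.27, 0.22, 0.02 and -0.27. Median-of-ratios scaling gave medians of 0.07 in the lowest class and -0.42 in the highest, with 13 calls higher and 30 lower in the highest. Quantile normalization, which gives all libraries the same distribution of levels, left medians of -0.06 and -0.07, and turned the split round to 31 calls higher and 8 lower in the highest class and to 27 higher and 29 lower below 2 FPKM. In the highest class the calls higher and lower were 12 and 9 without light replicate 1, 11 and 15 without light replicate 2, 11 and 5 without light replicate 3, 15 and 10 without dark replicate 1, 9 and 4 without dark replicate 2, and 40 and 74 without dark replicate 3. Below 2 FPKM 18, 12 and 175 genes were called higher without dark replicates 1, 2 and 3, and at most 1 gene was called in either direction with any 1 light library left out. The majority of calls in the highest class thus changed sides with the libraries used, while the median difference there stayed between -0.23 and -0.31 in all 6 of these fits.

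**Figure D3:**
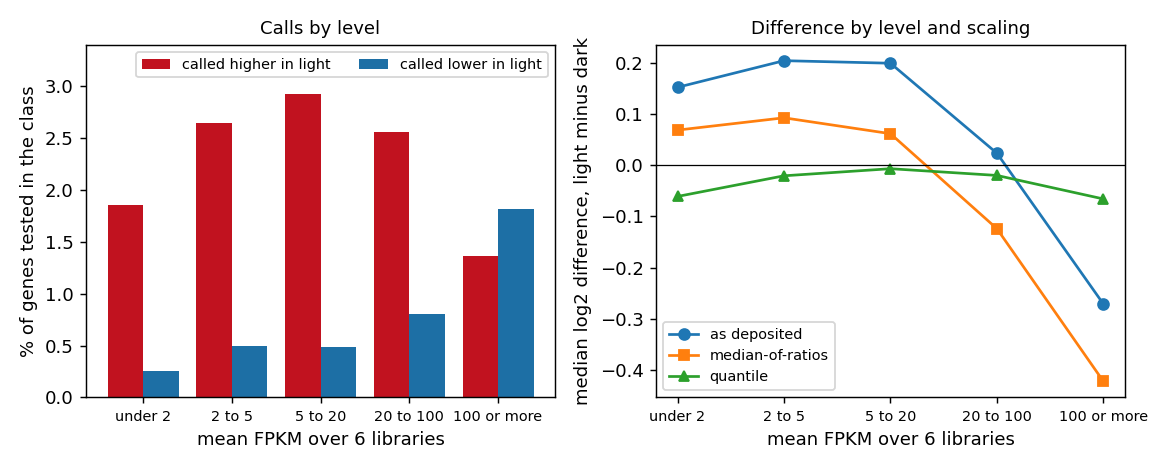
Left, the percentage of tested genes called higher (red) or lower (blue) in light in 5 classes of mean FPKM; right, the median log2 difference of light minus dark in the same classes on the deposited values and under the other scalings. The share called higher peaks at 2.92% from 5 to 20 FPKM, and the median as deposited lies at -0.27 in the highest class, against -0.07 after quantile normalization.

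The most abundant transcripts took less of the total in light. The 100 genes with the highest mean, each at 649.7 FPKM or more, held 17.4%, 18% and 17.9% of summed FPKM in light replicates 1, 2 and 3, against 23.2%, 20.8% and 18.9% in dark replicates 1, 2 and 3. The groups did not overlap, and dark replicate 3 lay within 1 percentage point of light replicate 2. Of these 100 genes 4 were called lower and 0 higher in limma as in voom. Over all genes tested limma called 0.607% lower and 2.55% higher. At an unadjusted p under 0.05 limma gave 53 lower and 6 higher of the 100 genes, and voom 56 and 8. Over all genes tested 29.3% had an unadjusted p under 0.05 in limma, in either direction. With quantile normalization the calls among the 100 genes were 0 lower and 2 higher, with 21 and 19 at an unadjusted p under 0.05. That scaling gives all libraries the same distribution of levels. It therefore largely takes out a shift shared by the most abundant genes, and cannot decide whether they were lower in light. Their median log2 difference was -0.41 as deposited and -0.08 after quantile normalization. Without any 1 of the light libraries, or without dark replicate 2, 0 were called lower in limma (30 to 53 at an unadjusted p under 0.05), while 1 was called without dark replicate 1 and 8 without dark replicate 3.

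The 3 most abundant genes that were not called held the first places in both conditions. Gbi08G0896 stood at 9233, 7428 and 9341 FPKM in light and at 16074, 9736 and 8324 FPKM in dark, and dark replicate 3 lay within the range of the light libraries. Its log2 difference was -0.34 (SE 0.27, limma adjusted p = 0.419, 0.175 to 0.873 over the alternatives). Gbi10G1092 stood at 6403, 7825 and 8115 FPKM in light and at 14559, 10599 and 9058 FPKM in dark. These values did not overlap, but the log2 difference of -0.59 (SE 0.22) did not pass (limma adjusted p = 0.131, 0.0514 to 0.753 over the alternatives). Gbi04G0594 came next in both conditions, at 5253, 6365 and 5850 FPKM in light and at 7266, 6379 and 5067 FPKM in dark, with overlapping groups. For all 3 genes dark replicate 1 was the highest of the 6 libraries.

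The called genes were a small part of the transcript pool in both conditions. Since the calls chose these genes, the following shares are a description. The 587 genes called higher made up 2.35%, 2.49% and 2.56% of summed FPKM in light replicates 1, 2 and 3, against 0.626%, 0.759% and 0.849% in dark replicates 1, 2 and 3. The 140 genes called lower made up 0.835%, 0.8% and 0.854% in light, against 2.11%, 1.83% and 1.55% in dark. In both sets dark replicate 1 lay farthest from light and dark replicate 3 nearest. A typical gene called higher stood at 12.996 FPKM in light and 3.68 FPKM in dark, and a typical gene called lower at 8.88 FPKM in light and 24.95 FPKM in dark (medians of group means).

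**Figure D4:**
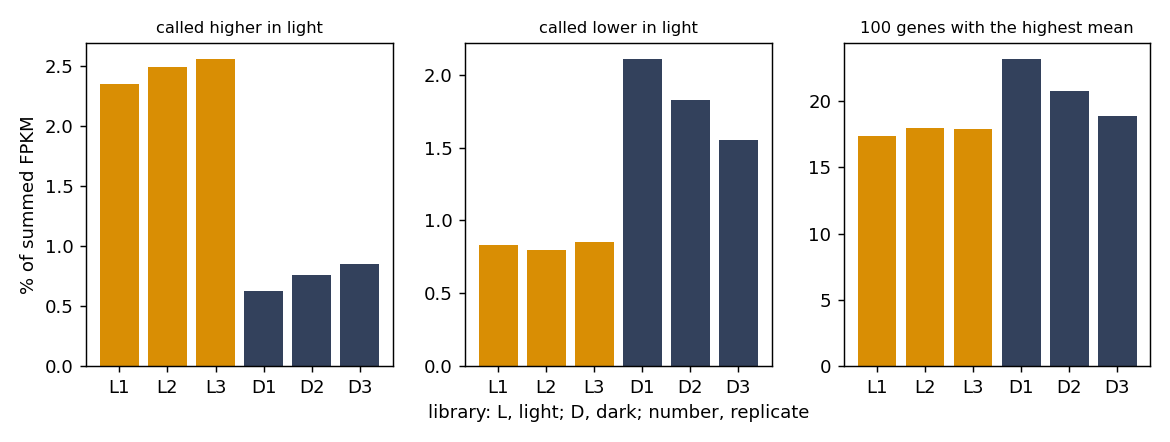
Percentage of summed FPKM (vertical axes, from 0) held in each library by the 587 genes called higher in light, the 140 called lower and the 100 genes with the highest mean; bars L1 to L3 are light and D1 to D3 dark replicates 1 to 3. In the first panel light bars stand at 2.35% to 2.56% and dark bars at 0.626% to 0.849%, and in the other panels D1 is the highest bar and D3 the lowest of the dark bars.

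More IDs were found in light alone than in dark alone. Among all IDs listed, 292 had fragments in all 3 light libraries and were listed at 0 in all 3 dark libraries, while 33 IDs had the opposite pattern. Most of these were rare, with a median of 11 light fragments over 3 libraries in the first set and 9 dark fragments in the second. The 292 IDs held 2356, 6632 and 2717 fragments in light replicates 1, 2 and 3, and light replicate 2, which also had the most IDs of its own, held the most of them. Its part in the count was not tested. Only 14 of the 292 IDs reached the level of the comparison, and 13 of these were called higher; with dark at 0, passing the level required light to be high. The 14 genes averaged 1.39 to 21.6 FPKM in light, on 13 to 1314 fragments over the 3 libraries. A floor of 3 fragments over the 3 dark libraries was set in place of 0, and against it they stood 4.25-fold to 429-fold higher in light. Since dark at 0 was how these genes were chosen, the folds are a description and leave out variation between libraries. Light replicate 2 was the highest light library in 6 of the 14. None of the 33 opposite IDs reached the level of the comparison, and their highest total was 43 fragments.

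IDs starting with Gbi, the scaffold IDs included, stood at 1 FPKM or more in 21793, 22082 and 21686 cases in light replicates 1, 2 and 3, against 20210, 20921 and 21484 in dark replicates 1, 2 and 3. Every light library exceeded every dark library. An exact two-sided permutation test of 3 against 3 libraries cannot go below 0.1, and it gave that value (p = 0.1, adjusted 0.1 over 2 tests). IDs without the Gbi prefix numbered 1350, 1614 and 1527 in light and 1312, 1322 and 1283 in dark, again without overlap (exact permutation p = 0.1, adjusted 0.1). At 5 FPKM or more these IDs numbered 657, 801 and 767 in light and 640, 663 and 656 in dark, and the groups overlapped (exact permutation p = 0.2). The ratio of the means of light over dark was 1.05 for Gbi and 1.15 for the others, where it was 1.1 without light replicate 2. Of the 5511 IDs without the prefix, 1369 (24.8%) entered the comparison, at a median of 4.95 FPKM, against 9.17 FPKM for 21496 Gbi genes outside scaffolds. IDs without the prefix gave 13 (0.95%) calls higher and 5 (0.365%) lower, and the 194 scaffold genes gave 9 (4.64%) and 3 (1.55%). Gbi genes outside scaffolds gave 565 (2.63%) and 132 (0.614%), and all genes tested 2.55% and 0.607%. The difference between these kinds of ID was not tested. The 1369 IDs without the prefix took 3.73% ± 0.303 of summed FPKM in light and 3.85% ± 0.136 in dark (SD, n = 3 each).

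Genes called lower had a shorter median length than all genes tested. Gene length, as recovered from the FPKM steps, had a median of 1581 bases (quartiles 965 and 2212) for genes called higher and 1059 bases (quartiles 534 and 1762) for genes called lower, against 1643 bases (quartiles 1015 and 2464) over all genes tested. Calls were spread over all 13 number prefixes of the Gbi IDs. The share called higher ran from 1.82% for prefix 06 to 3.5% for prefix 01, and the share called lower from 0.161% for prefix 04, with 2 genes, to 1.08% for prefix 10, with 17 genes. Of 13140 pairs of tested genes with consecutive ID numbers, 24 pairs were both called higher, 2 pairs both lower and 2 pairs one of each. Where the first gene of a pair was called higher, the next was so in 6.58% of 365 pairs, against 2.55% over all genes tested. Where the first was called lower, the next was so in 2.41% of 83 pairs, against 0.607% over all genes.

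The dark libraries differed more among themselves than the light libraries. The median SD of log2 values between replicates was 0.20 in light and 0.24 in dark, and 58.4% of genes had the larger SD in dark. Dark replicate 3 was the dark library nearest to the light mean for 54.4% of all genes, and dark replicate 1 the farthest for 57.5%. Among genes called higher dark replicate 3 was nearest for 51.8%, close to its share over all genes, and among genes called lower for 70.7%. The dark replicates 1, 2 and 3 lay a median of -1.61, -1.40 and -1.33 log2 units from the light mean for genes called higher, and 1.35, 1.26 and 1.03 for genes called lower. Without dark replicate 3 1457 further genes were called. Dark replicate 3 was also the deepest of the 6 libraries, at 18999970 fragments, and dark replicate 1 the shallowest, at 16377143; the part of depth in these distances was not tested. The labels give no batch, date or seed lot that would separate the dark libraries.

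**Figure D5:**
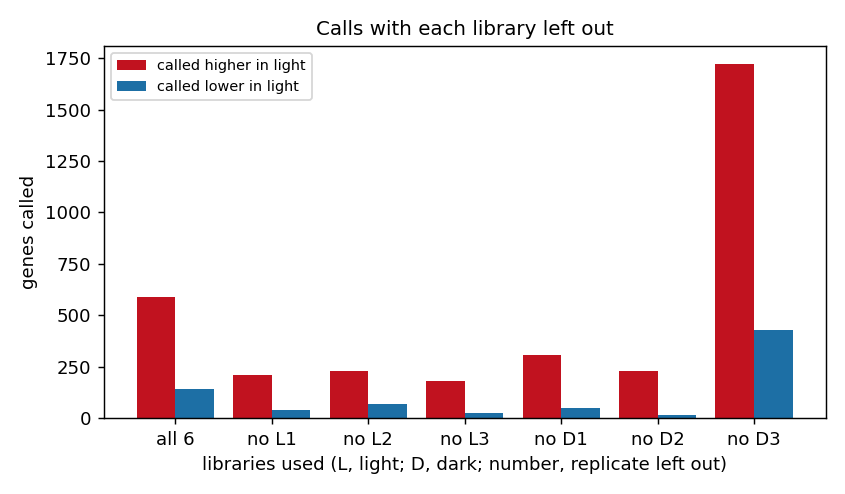
Number of genes called higher (red) and lower (blue) in light with all 6 libraries and with each library left out in turn; L and D stand for light and dark and the number for the replicate. The counts are 587 and 140 with all libraries, and 1723 and 430 without dark replicate 3, while each of the other 5 fits gives at most 307 higher and 67 lower.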

How the data were processed

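RNA of cotyledons was sequenced in pairs on an Illumina instrument after library preparation with a NEBNext Ultra kit, per the labels' protocols. The submitters' processing notes list HISAT2 2.0.4, HTSeq 0.6.0 and Trimmomatic 0.36; build, gene models and use of strand are not stated in what was used here, so antisense or overlapping genes cannot be told apart. The values are FPKM, as deposited by the authors, and were used without rescaling. The 15 columns of the separate time-course table were not used.

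Groups came from the sample titles. Genes at 1 FPKM or more in at least 3 libraries were tested with limma 3.58.1 in R 4.3.3 on log2(FPKM + 1), with a mean-variance trend, two-sided, and Benjamini-Hochberg adjustment. The pseudocount understates changes of low genes. Single values were compared by exact permutation tests in scipy 1.17.1.

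Multiples of 1 fragment gave whole library totals, gene lengths and fragment numbers. All 34570 IDs above 0 in at least 2 libraries fitted 1 whole length, at a relative tolerance of 1e-06 per value, and the rebuilt fragments summed to 99.55% to 99.68% of the totals. They are the smallest whole numbers that fit, so a few may be a multiple lower than the true ones. They cover counting error only. FPKM is not a count, so fragment numbers were tested only as an alternative (voom), chosen after seeing the data. The recovery of fragments and the limma fit on log2(FPKM + 1) were tested on simulated data, and voom was not.

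Named genes were the 2 in each direction with no overlap and both means at 5 FPKM or more, ranked by calls in the 6 fits with a library left out and then by size, and the 3 most abundant genes not called. Gene lists for light signalling, photosynthesis, gossypol synthesis and cell types could not be used, since no table links the IDs to names. The genes, lists and tests were chosen with earlier results of these data known.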

Additional observations from a re-analysis of the deposited data

How the results depend on the processing

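The 4 genes named as higher or lower in light kept their direction and their call in the 8 alternatives that left out no library; their calls in the 6 fits with a library left out were part of how they were chosen. Of the abundant genes, Gbi08G0896 turned to 0.0663 log2 units with quantile normalization and was not called. Quantile normalization gives equal ranks the same level in every library, so at the first ranks it can only reflect exchanges of rank. Gbi04G0594 turned to 0.0301 without dark replicate 1 (-0.23 to 0.0301 with each library left out) and was not called. The cause of this second change was not tested. The number of genes called was 312 with no filter, where more genes were tested, 1103 with no fold minimum, and 205 to 2153 with each library left out; it stayed within 1.5 times of 727 in the other alternatives. With voom, 844 genes were called and 618 of the 727 were among them. The share of calls higher in light was 80.7%, and was 86.2% with no filter, 68.5% with median-of-ratios scaling, 65.3% with quantile normalization, 83.8% with voom and 77.3% to 94.3% with each library left out. The ratio of IDs detected in light over dark stayed above 1 at 0.1 and 5 FPKM and with each library left out. Deviations of same-numbered light and dark libraries correlated at -0.0912, 0.0996 and 0.0522, against -0.158 to 0.132 for pairs with different numbers. With 3 libraries per group these values cannot decide whether a shared number means a shared origin, and the labels do not say. With the replicate number as a block 701 genes were called, 83.6% of them higher, and 557 of these were among the 727. Depth limits what can be said of the rarest genes: 17 genes called higher and 4 called lower had under 30 fragments in every library.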
